A study of Malus domestica with 16 samples.

Results

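The genes described here are 172 apple gene models whose transcript signal in fruit peel was strongly lower in every comparison of fruit given 1-MCP with fruit that had not received it, out of 59208 gene models measured with a sense probe. They were chosen by the measured log2 ratios themselves: each was at or below -2 on all 6 arrays that set a 1-MCP group against a group without it, and the ratio of O3 to Control was below 1 on at least 1 of 2 arrays. Of 211 sense probes that met the limit on the 6 arrays, 38 were raised by ozone on both arrays and were left out. One more was left out because the study names it among its own selected genes. The ratios that follow in the 4 comparisons therefore describe how the genes were chosen, and counts of calls among the members are given as a description, not as a test.

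The samples were peel of 'Granny Smith' apples (Malus domestica, wild type), picked when physiologically mature, with 7 fruits pooled in each sample. All fruit spent 6 months in cold rooms at 0 °C, with the relative humidity held at 95%. Control fruit received nothing else, 1-MCP fruit were exposed to 1-MCP for 24 h before storage, O3 fruit were stored in air with ozone at 0.3 μL per L, and 1-MCP+O3 fruit received both. Each of the 4 groups had 2 RNA extracts, A and B, and pairs of extracts were hybridized on 8 two-colour arrays in the comparisons 1-MCP vs Control, O3 vs Control, 1-MCP+O3 vs Control and 1-MCP+O3 vs O3. The first-named group carried Cy3 in replicate A and Cy5 in replicate B, so replicate and dye cannot be told apart within a comparison, and the same Control extracts served in 3 comparisons.

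1-MCP (1-methylcyclopropene) occupies the ethylene receptors of plant cells and so blocks the perception of ethylene, the hormone that drives ripening in climacteric fruit such as apple. The receptors sit in the endoplasmic reticulum membrane and repress the pathway while no ethylene is bound; ethylene lifts that repression and transcription factors of the EIN3 and ERF families then act on ripening genes. Superficial scald is a browning of apple peel that appears after long cold storage, and 1-MCP is widely used against it. Ozone is a strong oxidant that is added to the air of some cold stores.

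Few of the genes carried a name. One gene model, MDP0000242413, is ethylene response sensor 1 (ERS1), one of the ethylene receptors. MDP0000212925 has its best match in the Arabidopsis gene AGL80, a MADS-box transcription factor that in Arabidopsis acts in the central cell of the ovule. MDP0000602739 and MDP0000787808 both match Arabidopsis MYB42, an R2R3 MYB factor linked there to the synthesis of lignin, and since they match the same gene their probes may share signal. The other members are given by their gene model. Function names were read for 1482 sense gene models of a table that the study chose on these same samples, and 3 of the members were among them. The copy read was cut short and held mostly genes that were higher with 1-MCP, which fixes the direction of the counts in the lists and leaves little room in them for genes lowered by 1-MCP, so nothing is read from them about the members. All 3 fell in the list of regulators (transcription factors and kinases), which held 184 probes, of which 9 were called lower and 137 higher in 1-MCP vs Control. The ethylene list held 6 probes, with 0 called lower and 5 called higher by limma at an unadjusted p under 0.01. No member was in the lists for cell wall, terpene and ester volatiles, defence, oxidation or transport. Of 13 probes for cuticle and epidermis functions, 10 were well above background in every Control channel and 13 in every 1-MCP channel. Of 5 probes for seed, pollen or root functions, 4 were above it in every Control channel. In peel RNA of this kind, fewer cells of a type and less transcript per cell cannot be told apart.

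Over the 172 genes the lowering was deepest where 1-MCP was given without ozone. The median log2 ratio of 1-MCP vs Control was -4.26 in replicate A and -4.62 in replicate B. For 1-MCP+O3 vs Control the medians were -3.33 and -3.86. For 1-MCP+O3 vs O3 they were -3.73 and -3.83. Over all sense probes the medians on these 6 arrays lay between -0.09 and 0.17. The mean over the 6 arrays ranged from -7.30 to -2.40 among members with a median of -4.04, and it was at or below -5 in 32 genes and at or below -6 in 7. Within a gene, the highest and the lowest of the 6 ratios were a median of 2.24 apart. The 2 arrays of 1-MCP vs Control differed by a median of 0.81, which is more than the median of 0.353 between paired spots of the same probe on one array, measured on the 107 members with 2 spots.

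**Figure D1:**
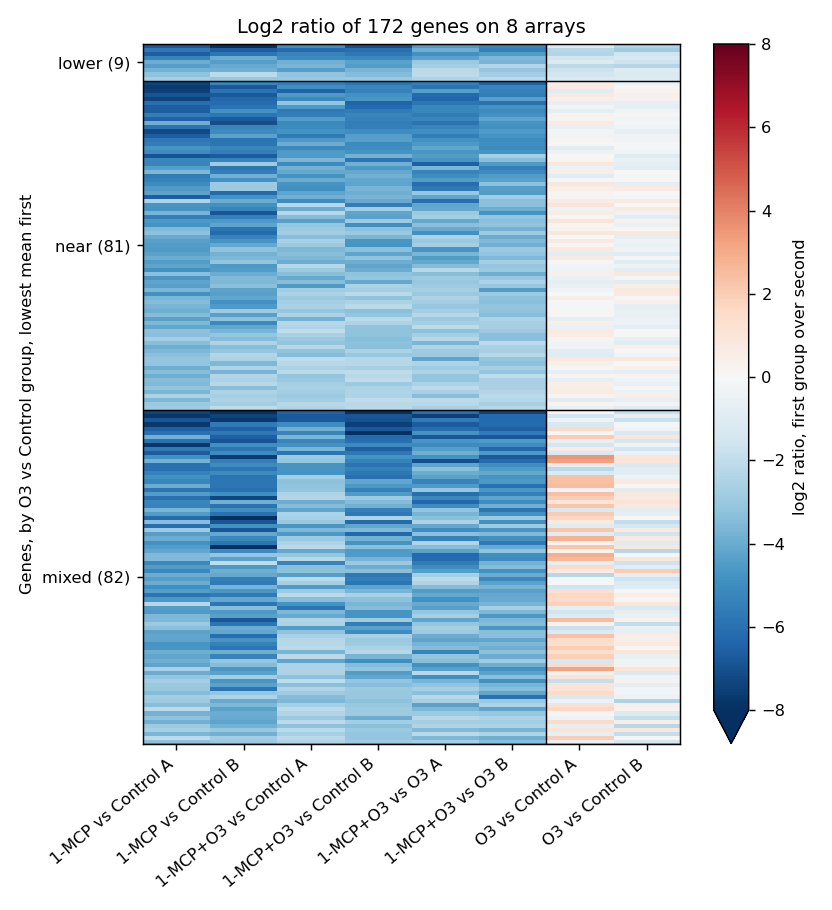
Log2 ratio (first-named group over second) of the 172 genes on the 8 arrays, with genes as rows sorted within their O3 vs Control group and arrays as columns. The colour scale ends at -8. The 6 columns with 1-MCP are at or below -2 throughout, while the medians of the last 2 columns are 0.19 and -0.33.

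The limit of -2 cut through a continuous range. The members just inside it were MDP0000560705, MDP0000860310 and MDP0000277208, whose highest ratios were -2.03, -2.03 and -2.04. Just outside lay MDP0000692178, MDP0000249405 and MDP0000210775, with highest ratios of -1.99, -1.98 and -1.97. For 59 members the highest of the 6 ratios was on replicate A of 1-MCP+O3 vs Control, and for 47 on replicate A of 1-MCP+O3 vs O3. At the limit on the ozone side, MDP0000767063 was kept with O3 vs Control ratios of 3.20 and 1.00, and MDP0000153539 was left out with 2.21 and 1.00.

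The rule can also be read step by step. Among all sense probes, 743 were at or below -2 on both arrays of 1-MCP vs Control, 347 on both arrays of 1-MCP+O3 vs Control and 735 on both arrays of 1-MCP+O3 vs O3. The first and the last of these comparisons share no RNA extract. Of the 743 genes, 438 (59.0%) were also at or below -2 on both arrays of 1-MCP+O3 vs O3, where 1.24% of all sense probes were. In the opposite direction, 303 sense probes were at or above 2 on all 6 arrays.

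The fit of limma to the 2 arrays of each comparison gave smaller ratios than those of the rule, with medians of -2.99, -2.40 and -2.49 in the 3 comparisons with 1-MCP where the processed signals gave -4.50, -3.69 and -3.76. The fit used median signals, background-corrected with a constant of 50 added, and loess. With no background correction the medians were -3.03, -2.33 and -2.45, and with median centring in place of loess -2.98, -2.31 and -2.42. Where the difference comes from was not tested further. At an unadjusted p under 0.01, 159 of 172 members were called lower in 1-MCP vs Control, beside 2.37% of all sense probes. In 1-MCP+O3 vs Control 141 were called lower, beside 1.57%, and in 1-MCP+O3 vs O3 128 were, beside 1.72%. The rule used these contrasts, so nothing is read from the counts. All 3 comparisons called 113 members and none of them called 7. No member reached an adjusted p under 0.05 in limma; the lowest adjusted p over all probes on the array (Benjamini-Hochberg) was 0.18, 0.34 and 0.42 in the same order. Under an unadjusted p of 0.05 the counts were 171, 170 and 172. No share of all sense probes was taken for these counts or for the 113, so nothing is read from them.

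Transcripts of the 172 genes were measured well in fruit without 1-MCP and often not in fruit with it. The rule favours this, because a strongly negative ratio on every array with 1-MCP calls for signal in the groups without it. The counts and levels therefore describe how the genes were chosen, and nothing further is read from the contrast between the groups. Of the members, 170 were well above background in all 6 Control channels and 169 in all 4 O3 channels. The median level of the members was 9.14 to 9.81 on the log2 scale in the Control channels and 9.45 to 9.68 in the O3 channels, against 6.12 and 6.56 in the 1-MCP channels and 6.42 to 7.13 in those of 1-MCP+O3. In the 1-MCP extracts 85 were well above background on both arrays, 43 on one and 44 on neither. In the 1-MCP+O3 extracts 89 were above it on all 4 arrays and 29 on none, and 24 genes were not well above background in any channel with 1-MCP. Those members have only a bound on how far they fell. Bounds and folds were taken from channel levels normalized between arrays, with the brighter group's mean set against the higher of the dim probe's own level and the lowest level that counted as well above background on that array.

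For the 44 members not well above background on either 1-MCP array, the 1-MCP level was at least 1.5-fold to at least 30.2-fold lower than Control, with a median bound of 3.0-fold. The bound of 30.2-fold belonged to MDP0000234659, which was also at least 17.9-fold lower in 1-MCP+O3 than in Control and at least 7.9-fold lower than in O3. For the 85 members measured on both 1-MCP arrays, the fold on the same scale ran from 3.4 to 55.9 with a median of 11.3. The 100 members measured on both arrays of 1-MCP+O3 vs Control were 2.1-fold to 55.1-fold lower, with a median of 6.6. The 96 measured in 1-MCP+O3 vs O3 were 2.1-fold to 35.6-fold lower, with a median of 7.1. These folds are smaller than the ratios of the rule. 3 members, MDP0000140483, MDP0000219062 and MDP0000279839, had saturated spots in 2 to 4 of 16 channels, none of them with 1-MCP, and a saturated spot gives only a lower bound on its level. All of these spots were in replicate B, in Control channels and, for MDP0000279839, also in the O3 channel of 1-MCP+O3 vs O3. The folds of these genes on those arrays are therefore lower bounds. The highest folds given here, 55.9 and 55.1 in MDP0000263180 and 35.6 in MDP0000219062, had no saturated spot in their comparison. A gene with only a bound could still lie above them.

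ERS1 (MDP0000242413), the ethylene receptor, was well above background in every channel. Its normalized log2 level in Control was 10.00, 10.48 and 11.06 on the 3 arrays with extract A and 10.40, 10.24 and 10.24 with extract B. In O3 fruit it was 8.99 and 8.98 in extract A and 9.50 and 9.49 in extract B. In 1-MCP fruit it was 7.00 and 7.22, and in 1-MCP+O3 fruit 7.26 and 7.30 in extract A and 7.50 and 7.39 in extract B. The groups did not overlap: every Control value was above every O3 value, and every O3 value was above those of the 1-MCP groups. The rule chose the gene for low ratios with 1-MCP, so nothing is read from the 1-MCP groups lying lowest. The 1-MCP values, up to 7.22, lay just below those of 1-MCP+O3, which began at 7.26. On the scale of the rule, the ratio was -3.80 and -3.86 in 1-MCP vs Control, -4.43 and -3.70 in 1-MCP+O3 vs Control, -2.16 and -3.12 in 1-MCP+O3 vs O3, and -1.70 and -1.05 in O3 vs Control.

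The AGL80 match MDP0000212925 had one of the lowest means, -6.03 over the 6 arrays. Its ratio was -6.51 and -6.50 in 1-MCP vs Control, where it was not well above background in either 1-MCP channel and was at least 14.5-fold lower. With ozone added it was -3.87 and -6.73 against Control and -6.07 and -6.51 against O3. Control levels ranged from 8.03 to 9.97, O3 levels from 9.10 to 10.74 and 1-MCP+O3 levels from 5.80 to 6.57, and the 1-MCP levels were 5.68 and 6.31. The groups with 1-MCP lay apart from those without, which the rule favours, and Control and O3 overlapped. In O3 vs Control the ratio was 1.55 in replicate A and -0.28 in replicate B.

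The pair of MYB42 matches behaved alike in part. MDP0000602739 had ratios of -4.40 and -5.49 in 1-MCP vs Control, -2.15 and -5.47 in 1-MCP+O3 vs Control and -2.11 and -5.15 in 1-MCP+O3 vs O3. For MDP0000787808 they were -3.96 and -4.31, -2.52 and -4.50, and -2.21 and -4.28. In both genes the replicate A ratio was closer to 0 than the replicate B ratio in every comparison with 1-MCP. The gap was larger where the 1-MCP fruit had also received ozone. MDP0000602739 was dim, at least 4.5-fold lower in 1-MCP than in Control, whereas MDP0000787808 was above background in all channels, with Control levels of 10.07 to 10.71 and 1-MCP levels of 6.92 and 7.14. Both were below 0 in O3 vs Control, at -0.07 and -1.67 for the first and -0.43 and -1.13 for the second.

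**Figure D2:**
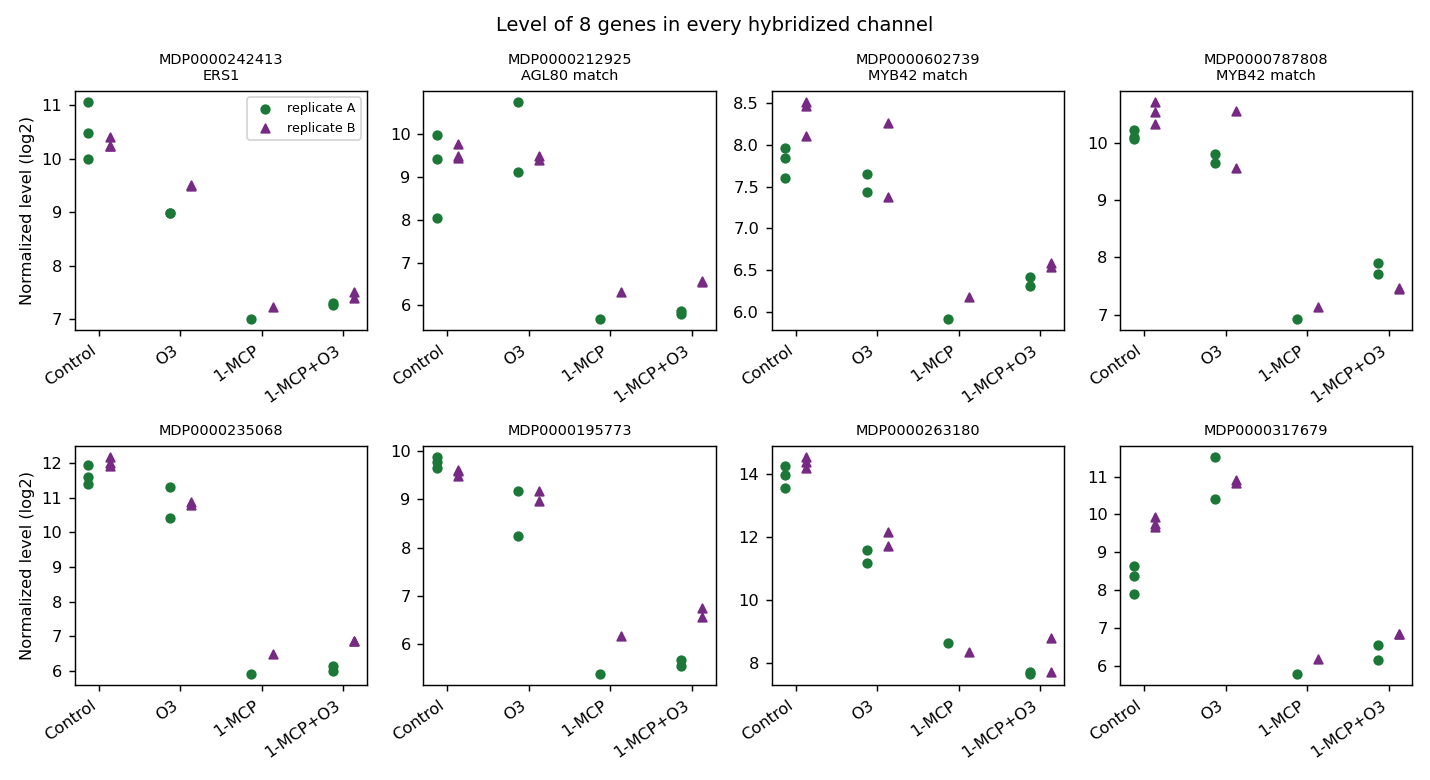
Normalized log2 level of 8 genes (vertical axis) in Control, O3, 1-MCP and 1-MCP+O3 fruit, each point being one hybridized channel, circles for replicate A and triangles for replicate B. In all 8 genes the points with 1-MCP lie below those without it, which the rule favours, so nothing is read from that. Every O3 point lies below every Control point in ERS1, MDP0000263180, MDP0000235068 and MDP0000195773, and above every one in MDP0000317679.

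Several of the lowest means belonged to genes that were dim with 1-MCP, so their order is not settled. MDP0000235068 had a mean of -7.30. Its ratios were -7.35 and -8.11 in 1-MCP vs Control, -6.48 and -8.43 in 1-MCP+O3 vs Control and -6.06 and -7.38 in 1-MCP+O3 vs O3. Its mean level was 12.06 in Control and 6.20 in 1-MCP on the arrays of that comparison, but it was well above background on only 1 of the 2 1-MCP arrays. MDP0000195773 had a mean of -7.08. It was not well above background in any channel with 1-MCP, and was at least 13.5-fold lower in 1-MCP and at least 12.3-fold lower in 1-MCP+O3 than in Control. MDP0000234659 had a mean of -6.67, from -6.87 and -7.69 in 1-MCP vs Control, -6.69 and -6.96 in 1-MCP+O3 vs Control and -5.62 and -6.19 in 1-MCP+O3 vs O3. MDP0000406592 had a mean of -6.45 and differed more between replicates, at -7.71 and -5.66 in 1-MCP vs Control and -5.06 and -7.48 in 1-MCP+O3 vs Control. MDP0000318256 had ratios of -6.18 and -9.64 in 1-MCP vs Control, where it was well above background on only 1 of the 2 1-MCP arrays, and of -2.59 and -2.44 in 1-MCP+O3 vs Control, where it was above it on both.

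Among the genes that were near 0 in O3 vs Control, low means were -6.01 in MDP0000173593, -5.94 in MDP0000166723, -5.84 in MDP0000534716, -5.80 in MDP0000312902 and -5.70 in MDP0000496202. Only MDP0000166723 of these 5 was above background in all channels with 1-MCP. Its mean level in 1-MCP vs Control was 6.18 in 1-MCP and 11.55 in Control, a 41.4-fold difference. Ozone on top of 1-MCP left it at -4.92 and -5.20 against Control, where 1-MCP alone gave -7.67 and -6.70. The others had bounds in 1-MCP vs Control of at least 7.7-fold to at least 12.5-fold.

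The members were on the whole less far below Control in 1-MCP+O3 fruit than in 1-MCP fruit. Both ratios were used to choose the members, so the counts describe them, and nothing is read from the values of all probes beside them. The mean ratio of 1-MCP+O3 vs Control was higher than that of 1-MCP vs Control in 142 of 172 genes, and the lowest of the 3 comparison means was that of 1-MCP vs Control in 122 genes. Taken array by array, the difference between the 2 ratios was above 0 in both replicates in 98 members (57.0%) and below 0 in both in 14, where 25.5% of all sense probes were above 0 in both. Its median was 0.86 in replicate A and 0.47 in replicate B for members, and 0.03 and -0.01 for all sense probes. Many of these members were dim in fruit with 1-MCP. Among the 80 that were well above background in both 1-MCP and both 1-MCP+O3 channels against Control, 42 were above 0 in both replicates and the medians were 0.78 and 0.15. The 2 ratios came from different slides and shared the Control extracts, and the part of the slide in this difference was not tested.

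**Figure D3:**
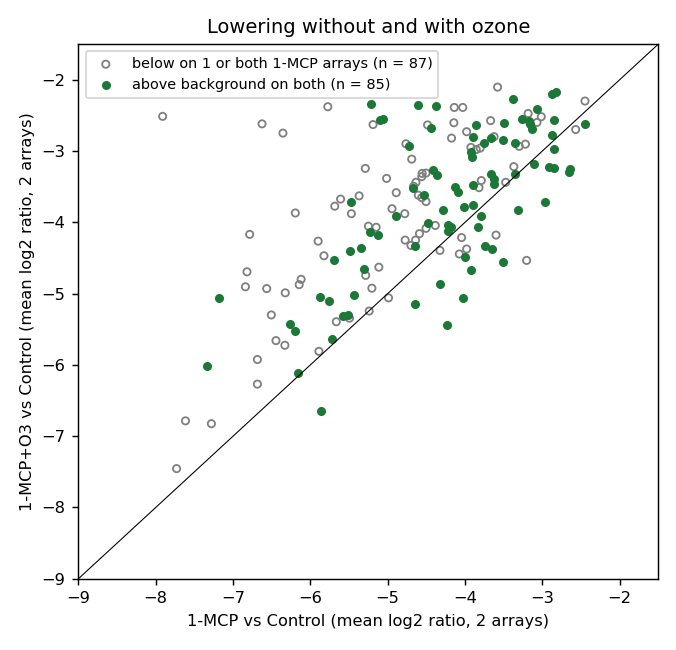
Mean log2 ratio of 1-MCP vs Control (horizontal axis) and of 1-MCP+O3 vs Control (vertical axis) for the 172 genes, each the mean of 2 arrays, with filled points for the 85 genes above background on both 1-MCP arrays. The line marks equal ratios; 142 genes lie above it.

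By their O3 vs Control ratios the 172 genes fell into 9 that were at or below -1 on both arrays, 81 that were between -1 and 1 on both, and 82 with a mixed pattern. The median over all members was 0.19 in replicate A and -0.33 in replicate B. The median of the 1-MCP vs Control means was -4.22 in the lower, -4.29 in the near and -4.56 in the mixed group. Of 1-MCP+O3 vs O3 the medians were -3.34, -3.52 and -4.04. The O3 vs Control ratio was below 0 on both arrays in 69 genes, above 0 on both in 50 and of opposite sign in 53. By limma at an unadjusted p under 0.01, 9 members were called lower in O3 vs Control, beside 0.738% of all sense probes, and 9 higher, beside 1.71%. The rule used this contrast too and removed the genes raised on both arrays, so nothing is read from these counts. The lowest adjusted p of any probe was 0.61 by limma. In a fit of all 8 arrays together 13 were called higher, and in the same fit 3 without replicate A and 18 without replicate B of O3 vs Control.

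The 9 genes lowered by ozone as well were all well above background on both 1-MCP arrays. In the 1-MCP+O3 channels MDP0000214562 was above background on 3 of 4 arrays and the others on all 4. MDP0000263180 had the lowest mean of O3 vs Control, -2.57, from -2.29 and -2.85. Its level was 13.54 to 14.53 in Control, 11.19 to 12.15 in O3, 8.36 and 8.64 in 1-MCP and 7.65 to 8.79 in 1-MCP+O3. Control, O3 and the groups with 1-MCP were therefore 3 separate ranges. The gene was chosen for low ratios with 1-MCP and named for its low O3 vs Control mean, so nothing is read from this separation. It was 55.9-fold lower in 1-MCP than in Control, measured on both 1-MCP arrays. MDP0000535048 had O3 vs Control ratios of -2.15 and -2.37 and MDP0000193678 of -2.33 and -1.58. MDP0000214562 combined -1.09 and -2.49 in O3 vs Control with -6.71 and -7.96 in 1-MCP vs Control, the lowest 1-MCP ratios of the 9. MDP0000756254 and MDP0000398765 had mean O3 vs Control ratios of -1.36 and -1.37. ERS1 was one of these 9 genes. With 1-MCP present, the median of the ozone difference in them was 0.12 in replicate A and 0.11 in replicate B.

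The 82 mixed genes held 42 that were at or above 1 on one array and between -1 and 1 on the other, and 40 that were at or below -1 on one array only. In 40 of the 42, the array at or above 1 was replicate A. MDP0000317679 had the highest mean, 2.25, from 3.56 in replicate A and 0.94 in replicate B. MDP0000191514 had 3.31 and 0.94, and MDP0000767063 3.20 and 1.00. All 3 were close to the limit that would have left them out. Over all 172 genes, replicate A was above replicate B in 123, by a median of 0.62, while the median difference over all sense probes was 0.21.

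**Figure D4:**
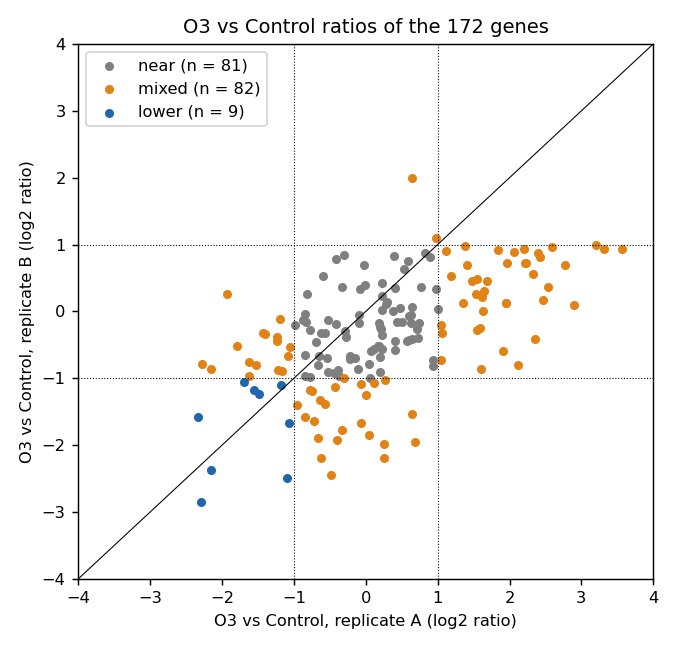
Log2 ratio of O3 vs Control in replicate A (horizontal axis) and replicate B (vertical axis) for the 172 genes, coloured by group: lower (9), near (81) and mixed (82). Dotted lines mark -1 and 1 and the solid line equal ratios; most mixed genes lie to the right of 1 in replicate A and below 1 in replicate B, or below -1 in one replicate only.

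The ozone grouping was also read on arrays it had not used, although the rule had used them to choose the members. The O3 and Control extracts were each hybridized against the 1-MCP+O3 extract of the same replicate on the second slide, and the difference of those 2 ratios gives O3 over Control again. Within a replicate, the O3 and Control extracts carried the same dye here, Cy5 in A and Cy3 in B. Replicate and dye therefore still went together. The extracts are the same, so this repeats the hybridization and not the biology. All 9 genes of the lower group were below 0 in both replicates, with medians of -0.87 and -0.86, and none was at or below -1 in both. Of the 42 mixed genes at or above 1 on one array, 33 were above 0 in both replicates, with a median of 1.58 in replicate A and 0.74 in replicate B, and 13 were at or above 1 in both. Of the 40 mixed genes at or below -1 on one array, 26 were below 0 in both, with medians of -0.50 and -0.83. The 81 near genes had medians of 0.17 and 0.02, and 47 of them lay between -1 and 1 in both replicates. Of all 172 members, 49 were below 0 in both, 61 above 0 in both and 68 between -1 and 1 in both. Of all 59208 sense probes, these counts were 19950, 12429 and 40593.

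The direct ratio of 1-MCP+O3 vs O3 and the same quantity taken through Control differed by a median of -0.19 in replicate A and -0.24 in replicate B over the members, and by 0.15 and -0.18 over all sense probes. The median absolute difference was 0.53 and 0.52 in the members and 0.52 in both replicates over all sense probes.

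Every member had a probe for the opposite strand of the same gene model. The rule did not use these antisense probes, but they lie on the same arrays and were hybridized with the same RNA extracts. Their changes are therefore not independent of how the members were chosen. Whether signal of the sense transcript reached the antisense spots was not tested. The shares of all antisense probes given beside the partners, here and below, are a description. By limma at an unadjusted p under 0.01, 42 of the 172 antisense partners (24.4%) were called lower in 1-MCP vs Control, beside 0.719% of all antisense probes. In 1-MCP+O3 vs Control 29 (16.9%) were called lower, beside 0.474%, and in 1-MCP+O3 vs O3 21 (12.2%) were, beside 0.424%. None was called higher in these 3 comparisons, also at an unadjusted p under 0.05, beside 0.594%, 0.295% and 0.24% of all antisense probes. In O3 vs Control 3 were called lower and 1 higher, beside 0.343% and 0.231%. No antisense partner reached an adjusted p under 0.05; the lowest adjusted p in the 4 comparisons, in the order of this paragraph, was 0.18, 0.34, 0.42 and 0.61.

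Most partners had ratios close to 0. The median fitted ratio of the partners was -0.26 in 1-MCP vs Control, -0.18 in 1-MCP+O3 vs Control and -0.17 in 1-MCP+O3 vs O3, and 111 of them were within 0.5 of 0 in the first. Processed signals, which carry no added constant, gave medians of -1.05, -0.77 and -0.79. 16 partners were at or below -1 on all 6 arrays (9.3%, beside 0.115% of all antisense probes). All 42 called partners were among the 71 that were well above background on both Control arrays of 1-MCP vs Control, and none of the other 101 was called. Of all antisense probes above background on both of these arrays, 2.79% were called lower, beside 59.2% of the 71 partners.

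The 5 called partners with the lowest means belonged to genes that were near 0 in O3 vs Control, and those of MDP0000219062 and MDP0000279839 were above background on only 1 of the 2 1-MCP arrays. The partner of MDP0000144836 was at -3.03 and -4.92 in 1-MCP vs Control, a mean of -3.98 (unadjusted p = 0.0076, adjusted p = 0.3 by limma), with Control at a mean level of 12.23 and 1-MCP at 8.26. That of MDP0000219062 was at -3.74 and -4.14 (mean -3.94, adjusted p = 0.18 by limma) and that of MDP0000279839 at -3.70 and -3.48 (mean -3.59, adjusted p = 0.18 by limma). The partners of MDP0000140483 and MDP0000825508 had means of -3.41 and -3.36. All 5 were lower on all 6 arrays with 1-MCP, the highest of those ratios being -1.91, and the last one was the only one of the 5 whose antisense ratio equalled that of the sense probe at -3.36. Of the named regulators, the partner of MDP0000787808 was at -1.98 and -1.35 (adjusted p = 0.27 by limma), that of MDP0000602739 at -0.24 and -0.29, that of ERS1 at -0.62 and -0.53 and that of the AGL80 match at 0.00 and -0.06.

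**Figure D5:**
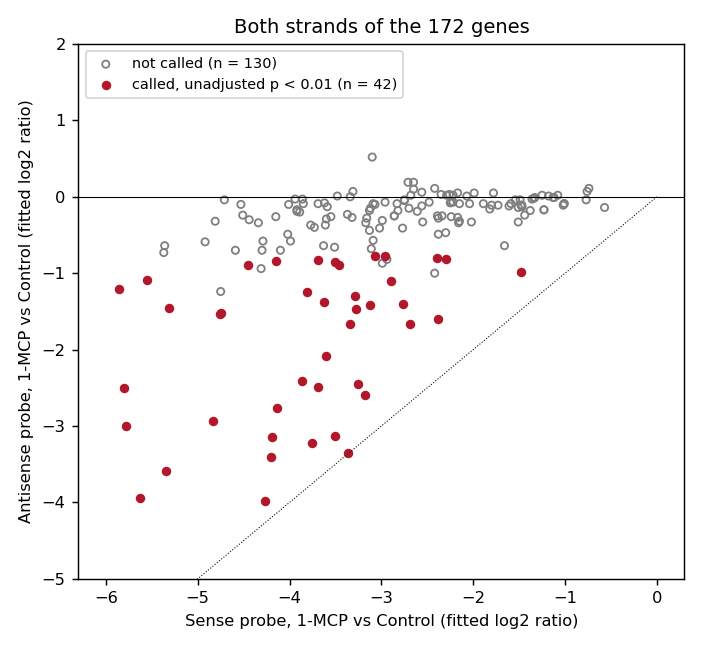
Fitted log2 ratio of 1-MCP vs Control for the sense probe (horizontal axis) and the antisense probe (vertical axis) of the 172 genes, with filled points for the 42 antisense probes called at an unadjusted p under 0.01. The solid line marks no change of the antisense probe and the dotted line equal ratios; most points lie between the 2 lines.

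The 38 genes that met the same limit on the 6 arrays but were raised by ozone on both arrays were the group most like these. Their median ratio was -4.10 in 1-MCP vs Control, -3.11 in 1-MCP+O3 vs Control and -5.05 in 1-MCP+O3 vs O3, against -4.50, -3.69 and -3.76 for the 172. On the antisense strand, 3 of 38 partners were called lower in 1-MCP vs Control and 6 were called higher in O3 vs Control, where 42 and 1 of 172 were. These differences between the 2 sets were not tested.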

How the data were processed

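Peel RNA of 4 groups, with 2 extracts each, was measured on 8 two-colour Agilent arrays of 133709 probes. The authors' Feature Extraction software had subtracted background and normalized dyes in the deposited processed intensity, per the file headers, and the deposited median intensity and background intensity were not normalized. The flags the authors deposited mark saturated, outlying and well-above-background spots. Per array, 14 measurement columns were used and 19 were not used here. The unused ones include the software's own log ratios and p-values. The authors used lowess and limma with a threshold of 0.01.

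Members were found on log2 ratios of processed signals, with spots averaged and the median of each array set to 0. Sense probes are those whose name ends in r. For the tests, median signals were corrected by normexp with an offset of 50, outlier spots were left out, loess was run within arrays, and the 2 arrays of a comparison were fitted with limma 3.58.1 in R 4.3.3 (lmFit, eBayes). Benjamini-Hochberg adjustment ran over all probes. Extract A of one group was hybridized with extract A of the other, and B with B, so every ratio is paired by hybridization. Channel levels were normalized between arrays (Aquantile), and a probe counted as well above background where any of its spots was. The procedure was tested on simulated data. A and B were separate samplings of 7 fruits, and how else the fruit differed is not stated. Within a comparison they also differed in dye order and array. The p-values therefore measure only the spread between the 2 arrays of a comparison, moderated over all probes. The number of arrays limits the precision. Per array, 47.8% to 54.9% of spots were well above background in Cy3 and 36.1% to 43.6% in Cy5.

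The members, the gene lists and the tests were chosen with earlier results of these data known. Named genes were those with a function name, the 5 lowest means in each O3 vs Control group, the 3 lowest and 3 highest O3 vs Control means, the 3 genes on either side of the limit, and the 5 antisense partners with the largest mean among those called in 1-MCP vs Control. MDP0000153539, the first gene outside the ozone limit, and MDP0000318256 were chosen after their values were seen. Alternatives changed background correction, signals, normalization, scaling, the filter on dim probes, pairing, joint fitting, moderation, the limits of the rule and the arrays used. Function names came from the study's text and a shortened copy of its table of changed genes. No sequences were used.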

Additional observations from a re-analysis of the deposited data

Results flagged for a closer look

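Among the genes named in the report that were well above background in all channels used, 4 had ozone ratios of opposite sign without and with 1-MCP: O3 vs Control was below 0 in both replicates, and 1-MCP+O3 less 1-MCP (each against Control) was above 0 in both. The difference was not tested, and the values with 1-MCP come from 2 slides. The rule used all of these ratios, and some genes were named for low O3 vs Control means, so nothing is read from the count. The value of 1-MCP+O3 less 1-MCP was above 0 in both replicates in 57.0% of members and 25.5% of all sense probes. In MDP0000214562 ozone gave -1.09 and -2.49 without 1-MCP and 1.74 and 0.91 with it, a mean difference of 3.12 on the log2 scale. In MDP0000193678 the values were -2.33 and -1.58 against 1.25 and 0.09, a difference of 2.63. In MDP0000398765 they were -1.07 and -1.67 against 0.12 and 0.11, a difference of 1.48. Its normalized level in extract A went the other way, at 6.93 in 1-MCP and 6.69 and 6.65 in 1-MCP+O3. In extract B it was 7.40 in 1-MCP and 7.62 and 7.20 in 1-MCP+O3. In MDP0000277208 the ozone values were -0.84 and -0.65 against 0.83 and 0.51, a difference of 1.41. Groups of 2 extracts allowed no outlier test.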

How the results depend on the processing

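Of 178 alternative values for the counts and medians, 131 stayed within 1.5 times the reported count or within the spread of the 2 arrays, and 1 changed sign: the median O3 vs Control ratio of the members was -0.02, and 0.02 without replicate B. The members numbered 72 when the rule was read on the ratios of the limma fit (70 of them shared with the 172), 550 at a limit of -1 and 62 at a limit of -3; leaving out 1 of the 6 arrays gave 172 to 241. With median centring in place of loess, members called lower were 42 in 1-MCP+O3 vs Control, 63 in 1-MCP+O3 vs O3 and 1 in O3 vs Control, 0 were called higher in O3 vs Control, the median O3 vs Control ratio was -0.14, and antisense partners called lower were 22, 2, 4 and 0 in 1-MCP vs Control, 1-MCP+O3 vs Control, 1-MCP+O3 vs O3 and O3 vs Control, with 0 higher in O3 vs Control. With processed signals, 3 members were called lower and 0 higher in O3 vs Control, the median ratios of the members were -4.50, -3.69, -3.76 and -0.11 in 1-MCP vs Control, 1-MCP+O3 vs Control, 1-MCP+O3 vs O3 and O3 vs Control, antisense partners called lower were 48 in 1-MCP+O3 vs Control and 56 in 1-MCP+O3 vs O3, and 2 were higher in O3 vs Control. The antisense medians on processed signals, an alternative chosen after seeing the data, were -1.05, -0.77, -0.79 and -0.05 in the same order, where the limma fit gave -0.26, -0.18, -0.17 and -0.01. With trend and robust moderation, 19 members were called higher in O3 vs Control, antisense partners called lower were 70, 57 and 54 in the 3 comparisons with 1-MCP, 1 was called higher in 1-MCP+O3 vs Control and 5 in O3 vs Control.

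With no replicate block, that is with the channels unpaired, antisense partners called lower in 1-MCP+O3 vs O3 were 33 and those called higher in O3 vs Control 2; unpaired counts of members called lower were 161, 112 and 132 in the 3 comparisons with 1-MCP. Fitting 8 arrays together gave 42 partners called lower in 1-MCP+O3 vs O3 and 6 higher in O3 vs Control. Leaving out dim probes gave 19 called lower in 1-MCP+O3 vs Control and 0 higher in O3 vs Control, and no background correction gave 2 higher in O3 vs Control. Scaling between arrays moved the member median of 1-MCP+O3 vs Control to -2.16. Leaving out 1 array of O3 vs Control gave 3 to 18 members and 2 to 6 antisense partners called higher there. With a limit of 0.5, the lower group by O3 vs Control held 35 genes and the near group 22; on the ratios of the limma fit the lower group held 5. The cause of these changes was not tested. Of 1200 alternative values for named genes, 86 were no longer called, 54 were newly called, 8 uncalled O3 vs Control ratios changed sign when 1 of its arrays was left out, and no called ratio did. Where a 1-MCP channel was not well above background, the depth of the lowering is known only as a bound.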
